A study of Homo sapiens with 62 samples.

Results

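The 43 genes described here are interferon-stimulated genes, chosen as a list by their gene names, and all 43 had a row in each of the 62 count tables. The tables list 58735 genes for A2058, HCT116, AGS and MCF10A, and 48162 genes for A2780. By role, the list holds 4 sensors of nucleic acid (DDX58, IFIH1, DHX58 and IFI16), 4 transcription factors (STAT2, IRF1, IRF7 and IRF9), 22 antiviral effectors (the IFIT, OAS, MX, IFITM, GBP and SAMD9 genes with RSAD2, CMPK2, ISG20, BST2 and TRIM22), 6 genes of the ISG15 and ubiquitin system (ISG15, USP18, HERC5, HERC6, PARP9 and DTX3L) and 7 others (IFI6, IFI27, IFI35, IFI44, IFI44L, XAF1 and EPSTI1).

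Interferons are secreted proteins that cells make when their sensors meet viral or misplaced nucleic acid. Type I and type III interferons bind receptors that act through the kinases JAK1 and TYK2, and the resulting complex, which contains STAT2 and IRF9, binds an element with paired GAAA blocks upstream of its target genes. Genes that respond to interferon gamma carry a palindromic TTC and GAA element, and IRF1 and IRF7 bind elements of the first kind. In tumour cells such genes can also be expressed at a basal level without virus.

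The study removed an extra copy of a chromosome arm from 5 human cell lines by ReDACT, a collection of chromosome-engineering techniques whose versions the labels name CO, NS and TR, and sequenced mRNA from the resulting single-cell clones and their parental lines. A2058 is a melanoma line whose wild-type (WT) cells carry gains of 1q, 7p and 8q. It contributed 4 WT libraries, 4 of 1q-loss (2 clones), 6 of 7p-loss (3 clones) and 4 of 8q-loss (2 clones), all clones made with CO. HCT116 is a colorectal cancer line with an 8q gain, with 2 WT libraries and 4 of 8q-loss (2 clones, CO). AGS is a gastric adenocarcinoma line with a 1q gain, with 1 WT library, 1 library from each of 2 TK+ clones and 1 library from each of 5 1q-loss clones, of which clones 1, 4, 6 and 7 were made with NS and clone 11 with CO. A2780 is an ovarian cancer line with a 1q gain, with 2 WT, 2 TK+ and 6 1q-loss libraries (clones 2, 5 and 6, NS). TK+ cells in both lines carry a TK integrant and keep the 1q gain. MCF10A is a non-tumour breast epithelial line with an extra copy of 1q, with 2 WT libraries and 8 of 1q-loss (4 clones), and the same numbers for cells that express the hRASV12 oncogene (hRas). MCF10A clones 1 to 3 were made with TR and clone 4 with CO, with and without hRas. Only the MCF10A labels name biological replicates, so in A2058, HCT116 and A2780 libraries of 1 clone or control may be technical repeats. P-values there measure a spread that mixes clones with libraries of 1 clone. In AGS each 1q-loss or TK+ library is another clone, so the spread in those groups is between clones. In no line are libraries of 1 clone independent clones.

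Libraries held 15042068 to 30984036 counts. No pair of libraries of a group agreed within sampling noise (chi-square per degree of freedom 3.461 to 167.573), so none was dropped as a copy of another. That check cannot tell separate cultures from separate preparations of 1 culture. The median log2 shift of the genes of the targeted arm, relative to the rest of the genome, was below 0 in every clone, from -0.66 in HCT116 to -0.30 in MCF10A with hRas. A2058 parental cells expressed the melanocyte markers SOX10, MITF, PMEL and MLANA. MCF10A cells expressed the basal marker KRT5, AGS the epithelial and intestinal markers EPCAM and VIL1, and HCT116 EPCAM and the intestinal transcription factor gene CDX2 (32.4 to 47.1 CPM, counts scaled to library size), with VIL1 at most 0.473 and LGALS4 at most 1.10 CPM. In AGS the gastric marker TFF1 was at 18.1 to 28.5 CPM in the 3 control libraries, and CLDN18 and TFF2 were at most 0.194 and 0.237 CPM. In A2058 the 8q-loss and 7p-loss libraries of replicate 1 had 1.93% to 2.49% of counts from mitochondrial genes and those of replicate 2 had 2.83% to 4.60%, against 2.52% to 4.12% in WT. The ovarian markers were low, with PAX8 and WT1 at most 0.548 and 0.0423 CPM in A2780. The counting is not stated to use strand, and 23 of the 43 members overlap another gene in GRCh38 (19 of 43 in GRCh37), so reads of XAF1 and PRAL, of IFITM1 and IFITM2 or of TRIM22 and TRIM5 cannot be told apart where they overlap. In RNA from a population, fewer cells that express a gene and less RNA per cell cannot be told apart.

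Upstream sequences are shown for 6 members whose changes are described below, as RefSeq lists them for GRCh38.p14 (250 bases before a listed start, 5′ to 3′ in the direction of the gene). IFI27, BST2, IFI6 and IFIT1 are shown because they rose in A2058 1q-loss cells and hold the paired element. XAF1 and IFI16 are shown because their windows hold neither motif searched. Capitals mark GAAANNGAAA or TTCNNNGAA on either strand, which overlap in IFI27 and BST2.
IFI27, chr14:94110486-94110735, plus strand: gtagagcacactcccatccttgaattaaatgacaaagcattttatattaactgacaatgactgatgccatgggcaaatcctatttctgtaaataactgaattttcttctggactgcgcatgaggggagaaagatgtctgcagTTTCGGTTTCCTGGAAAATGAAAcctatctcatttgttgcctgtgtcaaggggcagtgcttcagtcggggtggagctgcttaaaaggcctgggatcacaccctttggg
BST2, chr19:17405631-17405880, minus strand: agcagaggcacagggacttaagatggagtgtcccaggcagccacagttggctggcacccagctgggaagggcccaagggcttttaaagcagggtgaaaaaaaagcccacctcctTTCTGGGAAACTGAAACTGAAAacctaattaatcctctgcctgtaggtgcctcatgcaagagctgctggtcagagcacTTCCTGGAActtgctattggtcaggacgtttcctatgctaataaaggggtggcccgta
IFI6, chr1:27672193-27672442, minus strand: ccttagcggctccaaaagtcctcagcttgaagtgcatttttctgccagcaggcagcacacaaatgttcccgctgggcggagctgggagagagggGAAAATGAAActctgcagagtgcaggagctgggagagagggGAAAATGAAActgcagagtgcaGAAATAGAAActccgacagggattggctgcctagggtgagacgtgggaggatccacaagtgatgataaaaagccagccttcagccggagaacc
IFIT1, chr10:89392373-89392622, plus strand: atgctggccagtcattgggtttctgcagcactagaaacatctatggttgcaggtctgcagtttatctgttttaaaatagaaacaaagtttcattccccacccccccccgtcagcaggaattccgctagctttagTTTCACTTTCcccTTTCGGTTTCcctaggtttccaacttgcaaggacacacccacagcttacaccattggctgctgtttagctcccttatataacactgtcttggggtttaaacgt
XAF1, chr17:6755197-6755446, plus strand: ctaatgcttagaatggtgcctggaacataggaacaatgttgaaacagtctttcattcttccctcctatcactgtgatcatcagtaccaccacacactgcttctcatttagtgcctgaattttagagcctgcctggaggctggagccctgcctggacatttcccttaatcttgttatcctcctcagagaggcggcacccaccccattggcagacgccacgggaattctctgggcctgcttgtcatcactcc
IFI16, chr1:159008741-159008990, plus strand: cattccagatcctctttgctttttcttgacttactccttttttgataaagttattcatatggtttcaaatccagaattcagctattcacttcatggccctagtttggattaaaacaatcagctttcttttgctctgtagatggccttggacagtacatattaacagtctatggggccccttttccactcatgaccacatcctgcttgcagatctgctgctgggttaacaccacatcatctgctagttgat

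RefSeq's table held a start for 33 of the 43 members, DDX58 under its current symbol RIGI. GAAANNGAAA was found before at least 1 listed start of 21 of these 33 genes (63.6%) and in 24 of their 44 windows (54.5%), against 1061 of all 35116 windows (3.02%). TTCNNNGAA was found for 9 of 33 (27.3%) and in 10 of 44 windows (22.7%), against 6.57% of all windows. IFI27 and IFIT1 each carry the first motif as a pair, IFI6 carries 3 copies, and BST2 carries 2 copies that share a GAAA block. A match is a description of letters, not of a bound site. Among members that rose in A2058 1q-loss cells, XAF1, DDX58, OAS1, IRF1, HERC6, DTX3L and SAMD9L held no GAAANNGAAA in the windows listed.

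Parental cells differed in which members they expressed. Per kilobase of gene model, the transmembrane antiviral protein gene IFITM3 was the highest member in A2058 (128 CPM per kb, 121 to 139 over 4 libraries), A2780 (78.4, libraries 72.4 and 84.4), HCT116 (497, libraries 378 and 616) and MCF10A (110, libraries 104 and 115). In AGS, with 1 WT library, IFI6 stood first at 540 CPM per kb and ISG15 second at 478. The median over the 43 members was 8.78 CPM per kb in AGS, 2.12 in A2058, 0.731 in MCF10A, 0.689 in HCT116 and 0.387 in A2780. Gene lengths for A2780 come from GRCh37 models and the others from GRCh38, and can differ (MX2, 4064 against 13047 bases). The A2780 levels per kb are therefore not on the scale of the other lines. All 43 members reached 10 counts in some A2058 library. No AGS library reached 10 counts for GBP2, HERC5 or HERC6. The same held in MCF10A for OAS2, MX2, RSAD2 and XAF1, and in HCT116 for IFI16, MX2, RSAD2, TRIM22, SAMD9L, GBP1, IFI44L and XAF1. In A2780 it held for 13 members, among them OAS1, OAS2, MX1, RSAD2 and EPSTI1.

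Loss of 1q in A2058 came with higher levels of most members. Of the 42 members that passed the filter on low counts, 32 rose and 2 fell at an adjusted p under 0.05 (edgeR quasi-likelihood test, adjusted over all 15387 genes tested). Across those genes 25.3% were called higher and 24.3% lower, 49.6% in all. The median log2 fold change was 1.38 over the 42 members and -0.00057 over all genes. IFI27, XAF1 and OAS2 had a median under 10 counts in WT and so passed the filter only through the 1q-loss libraries, where they are high. Their folds are therefore a description, and of the other 39 members 29 rose and 2 fell, with a median of 1.34. The map of changes by loss group shows this column as the one with the most members called.

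**Figure D1:**
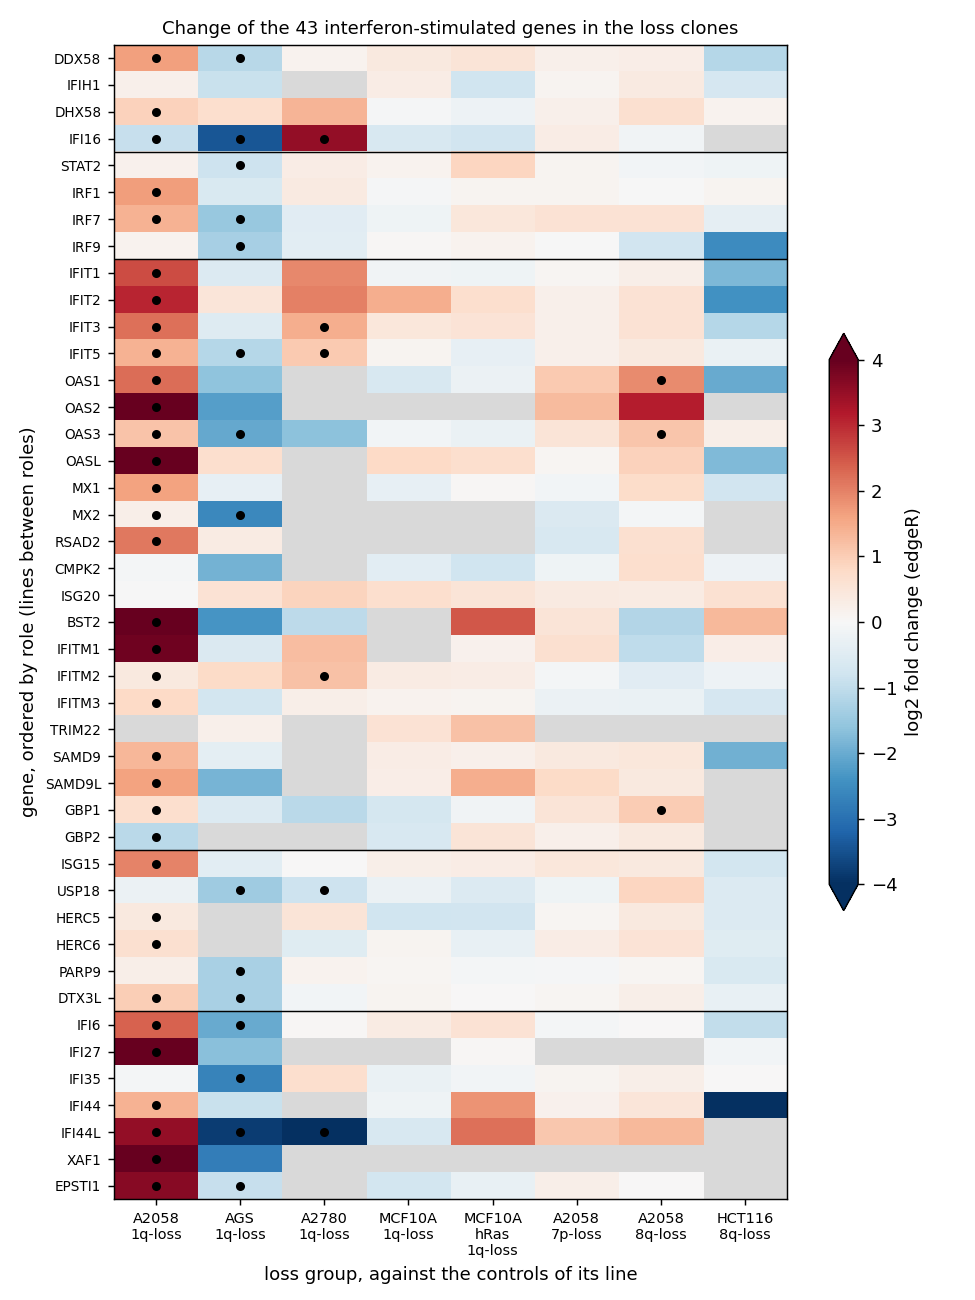
Log2 fold change of the 43 members (rows, ordered by role) in the 8 loss groups (columns) against the controls of each line; colours are limited to -4 and 4, black dots mark members called at an adjusted p under 0.05, and grey marks members that did not pass the low-count filter. A2058 1q-loss has 34 dots, AGS 1q-loss 15, A2780 1q-loss 6 and A2058 8q-loss 3, and the other 4 columns have none.

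The 5 largest increases were in IFI27, XAF1, OAS2, OASL and BST2, of which the first 4 stayed below 1 CPM in every A2058 WT library. IFI27, which encodes a small mitochondrial protein, was at 11.5 and 52.5 CPM in the libraries of 1q-loss clone 1 and at 4.24 and 14.8 CPM in clone 2, against 0.0462 to 0.173 CPM (12 counts in all) in the 4 WT libraries (log2 fold change 7.19). XAF1, a pro-apoptotic antagonist of XIAP, was at 5.53 and 6.29 CPM in clone 1, at 4.38 and 5.70 in clone 2, and at 0 to 0.127 CPM (4 counts in all) in WT (6.75). No WT library overlapped the 1q-loss libraries for either gene, and the size of both folds rests on few WT counts. OAS2, which makes the oligoadenylate messenger that activates RNase L, was at 10.4 and 16.4 CPM in clone 1 and at 6.66 and 11.4 in clone 2, against 0 to 0.692 in WT (5.23). Its relative OASL, which lacks that activity, was at 19.5, 17.6, 15.5 and 20.4 CPM against 0.389 to 0.97 (4.79, SE 0.23). BST2, or tetherin, which holds budding virions at the cell surface, was at 127, 166, 97.1 and 94.6 CPM against 4.06 to 8.08 (4.31, SE 0.24, adjusted p = 3.7e-07).

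**Figure D2:**
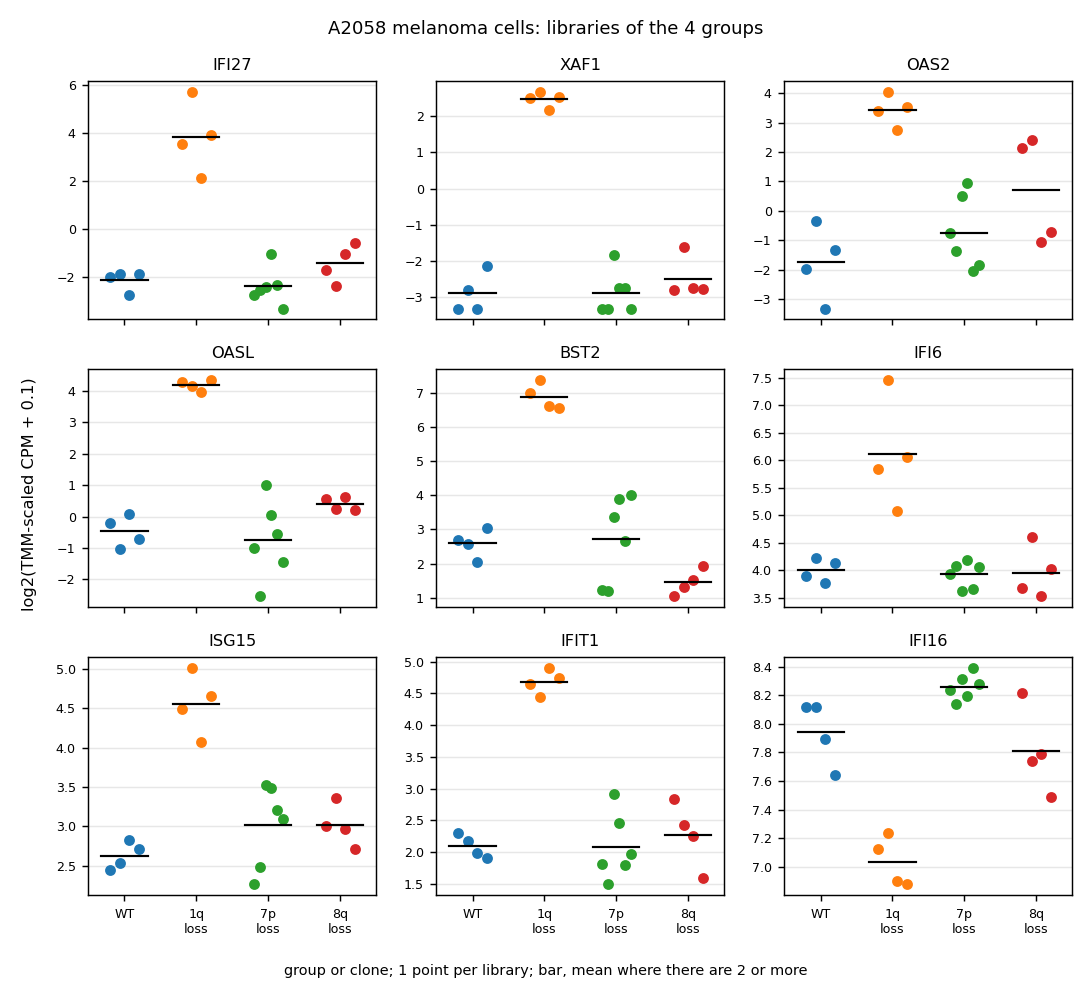
Level of 9 members in the 18 A2058 libraries, as log2(TMM-scaled CPM + 0.1), 1 point per library and a bar at each group's mean. For 8 of the 9 genes the 4 1q-loss libraries lie above all 4 WT libraries; for IFI16 they lie below (117 to 151 against 199 to 278 CPM).

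By role, 18 of the 21 effectors tested rose and 1 fell. The IFIT genes, whose products bind viral RNA ends, rose together: IFIT1 from 4.19 ± 0.531 to 25.8 ± 3.42 CPM (SD, n = 4 each), IFIT2 from 2.93 ± 0.264 to 24.1 ± 3.51, IFIT3 from 10.2 ± 1.48 to 47.2 ± 2.87 and IFIT5 from 14.8 ± 2.54 to 38.4 ± 2.17. OAS1, RSAD2 (viperin) and MX1, a GTPase that traps viral nucleocapsids, rose by log2 2.25, 2.09 and 1.62. IFITM1 was at 15.3 and 49.6 CPM in clone 1 and 3.68 and 11.7 in clone 2 against 0.646 to 1.99 in WT (log2 3.89, SE 0.72), whereas IFITM3 rose by log2 0.80 from its high base. GBP2, a guanylate-binding GTPase, fell by 1.07 on the log2 scale (7.74 to 10.5 CPM against 15 to 21.5, adjusted p = 0.00032), while its neighbour GBP1 rose by 0.68. CMPK2 and ISG20 did not pass, and TRIM22, not tested, was at 0.326 to 2.95 CPM in 1q-loss and at 0 to 0.101 in WT.

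Of the 4 sensors, DDX58 (RIG-I) rose from 9.21 ± 0.74 to 28.9 ± 2.49 CPM (n = 4 each; log2 1.65, SE 0.10) and DHX58 (LGP2) by log2 0.92, and IFIH1 (MDA5) was at 13.2 ± 1.82 against 11.6 ± 0.711 CPM (adjusted p = 0.23). IFI16, the DNA sensor and the only member on 1q (chr1:158999968-159055155, GRCh38, plus strand), fell: it was at 140 and 151 CPM in clone 1, at 119 and 117 in clone 2 and at 278, 278, 237 and 199 in WT (log2 -0.92, SE 0.12, adjusted p = 0.00012). The median shift of 1q genes was -0.49 and -0.45 in clones 1 and 2 on the log2 scale. Among transcription factors IRF1 (log2 1.68, SE 0.10) and IRF7 (1.38, SE 0.17) rose, while STAT2 and IRF9 were at 33.1 and 1.16 CPM against 29.7 and 1.06 and were not called. In the ISG15 system, ISG15 itself, a ubiquitin-like modifier, rose from 5.33 to 7.02 CPM in WT to 16.7 to 32.2 (log2 1.97, SE 0.19). DTX3L, HERC6 and HERC5, which are ubiquitin or ISG15 ligases, rose by log2 0.98, 0.65 and 0.38. USP18, the enzyme that removes ISG15, was at 3.96 ± 0.577 against 4.63 ± 1.49 CPM (adjusted p = 0.44), and PARP9 missed the threshold (log2 0.24, adjusted p = 0.062). Among the others IFI6, which encodes a mitochondrial protein, was at 57.1 and 176 CPM in clone 1 and 33.8 and 66.4 in clone 2 against 13.6 to 18.4 (log2 2.37, SE 0.43), EPSTI1 rose by 3.65, IFI44L by 3.52 and IFI44 by 1.40, and IFI35 was not called.

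Both 1q-loss clones of A2058 carried the change. Clone 1 had 33 members called (31 higher; 43.7% of all genes called) with IFI27 up most (7.81) and GBP2 down most (-1.13), and clone 2 had 36 (32 higher; 46.8% of all genes) with XAF1 up most (6.63) and IFI16 down most (-1.07). Without IFI27, XAF1 and OAS2, 28 and 29 of the other 39 members were higher and 2 and 4 lower, OASL being the largest increase in both (4.82 and 4.77). The clones differed from each other in 3 of 42 members, CMPK2, ISG20 and IFI44L, where 4.84% of all genes differed, and in 8 with a replicate block (11.5% of all genes). For IFI44L the libraries were at 8.49 and 17 CPM in clone 1 and at 3.35 and 5.17 in clone 2, all above the WT range of 0.476 to 1.06. The 13q genes shifted by -0.37 (log2) in clone 2, and EPSTI1, on 13q, was at 36.4 and 39.2 CPM there and at 26.2 and 37.0 in clone 1.

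Genes of the pathway outside the list moved as well: of 49, 37 were tested in A2058 1q-loss, and 27 rose and 3 fell (25.3% and 24.3% of all genes). All 9 antigen-presentation genes rose, led by HLA-B (log2 3.02, SE 0.20). The 3 chemokine genes tested, CCL5, CXCL10 and CXCL11, had a median under 10 counts in WT and passed the filter only through the 1q-loss libraries, so their values are a description: of the other 34 pathway genes 24 rose and 3 fell. CCL5 was at 19.9 to 25.8 CPM in the 4 1q-loss libraries and at most 0.254 in WT. The receptor subunit IFNAR1 rose by log2 0.57, IFNAR2 (-0.31, adjusted p = 0.17) and JAK1 (0.17, adjusted p = 0.066) were not called, and ADAR, the 1q gene for an RNA-editing enzyme that limits sensing of double-stranded RNA, fell by 0.37. IFNB1, IFNL1, IFNL2 and IFNL3 had 0 counts in all 18 A2058 libraries. Among the 9 ligand genes none passed the filter.

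Markers of cell identity moved in the same libraries. The summed level of the 4 melanocyte markers was 43.8 to 133 CPM in A2058 1q-loss, against 1559 to 2580 in WT, 905 to 1808 in 7p-loss and 1755 to 2617 in 8q-loss. MLANA was at 0.831 to 23.7 CPM over all A2058 libraries, so the sums do not describe its level in WT, 7p-loss or 8q-loss. SOX10 was at 24.8 to 82.1 CPM in 1q-loss and at 470 to 651 in WT, and PMEL at 9.82 to 25.6 against 778 to 1722. The summed level of the 4 epithelial markers was 167 to 212 CPM in 1q-loss and 80.3 to 107 in WT, and the keratin genes KRT18 (150 to 180 against 73.9 to 95.4) and KRT8 (14.8 to 39.3 against 6.10 to 10.8) carried nearly all of it. EPCAM and CDH1 were at most 0.296 and 0.355 CPM in any A2058 library. The 3 ovarian markers summed to 16 to 19.7 CPM in 1q-loss and 7.11 to 8.83 in WT, nearly all from WT1, and MUC16 was at 0 in both. The basal marker TP63 was at 0.242 to 15.7 CPM in 1q-loss and at 0 in WT, whereas KRT5 and KRT14 were at most 0.34 and 0.0484 CPM in 1q-loss. The 4 immune markers summed to at most 1.21 CPM in 1q-loss and 0.609 in WT. What part the shift in markers has in the rise of the members was not tested.

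After removal of 7p or 8q from the same line fewer members were called, and these comparisons share the 4 WT libraries with the 1q comparison. In 7p-loss, 0 of 40 members tested were called, with 3 at an unadjusted p under 0.05 and 0 called by DESeq2, against 0.908% of all genes called by edgeR, and the median log2 fold change was 0.19. In 8q-loss, 3 of 40 rose and none fell (0.542% and 1.49% of all genes, 2.03% in all). An unadjusted p under 0.05 was found for 22, with no count over all genes to set beside it. A log2 fold change above 0 was found for 31, with a median of 0.39 against 0.0075 over all genes. OAS1 was at 7.77 and 8.49 CPM in 8q-loss clone 1, at 5.4 and 4.4 in clone 2 and at 1.44 to 2.26 in WT (log2 1.89, SE 0.26, adjusted p = 0.0057). OAS3 was at 30.6, 46.0, 39.5 and 47.5 CPM against 14.9 to 24.3 (1.09, SE 0.17) and the GTPase gene GBP1 at 46.2, 58.3, 32.8 and 47.0 against 18.7 to 32.1 (1.02, SE 0.21). All 3 lay above every WT library, and with only WT replicates 3 and 4 as controls 0 members were called. With a replicate block, in which WT replicates 3 and 4 have no same-numbered partner, 1 was called. The 1q-loss libraries were also compared directly with the 10 7p-loss and 8q-loss libraries, a comparison added after seeing the data: 24 of 42 members were higher and 2 (IFI16 and GBP2) lower, against 17.1% and 18.9% of all genes (36% in all). IFI27 (6.71) and XAF1 (6.31) passed the filter only through the 1q-loss libraries, being at most 0.556 and 0.225 CPM in the others, and are a description; of the other 40 members 22 were higher and 2 lower. OASL was 4.30 higher on the log2 scale (SE 0.45), BST2 4.27 (SE 0.52) and IFITM1 3.70 (SE 0.81), whereas OAS3 (0.36, adjusted p = 0.28) was not called. Of the pathway genes, 0 of 35 tested were called in 7p-loss (1 at an unadjusted p under 0.05), and in 8q-loss HLA-B alone of 34 rose (1.04), while JAK1, IFNAR1, IFNAR2 and ADAR were called in neither.

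The 7p-loss clones differed among themselves in 21 of 40 members (34.6% of all genes differed), and in 25 (42.8%) with a replicate block. Of the 36 members with a median of at least 10 counts in each clone, 18 differed. Clone 1 had 4 members higher and 8 lower (37.9% of all genes called), 7 lower without IFITM1, whose median there was under 10 counts: SAMD9L, an antiviral effector on 7q, was at 27.6 and 32.2 CPM there, 9.10 and 8.51 in clone 2 and 5.07 and 5.10 in clone 3, and MX2, which blocks nuclear entry of HIV, was at 4.99 and 5.85 CPM in clone 1 against 79.2 to 95.8 in clones 2 and 3 and 76.1 to 99.1 in WT (log2 -4.04 in clone 1). Clone 2 had 5 members higher (5.24% of all genes), OAS1 most (1.91), and clone 3 had 2 (6.14%), ISG20 (1.06) and IFI35 (0.43). The 17p genes shifted by -0.53 (log2) in clone 1, where XAF1, on 17p, had no count in either library, and WT had 4 counts in 4 libraries. Of the 8q-loss clones, clone 1 had 11 higher and 2 lower (5.59%), and clone 2 had 2 higher (2.71%), OAS1 (1.48) and OAS3 (1.18). OAS2, at 4.28 and 5.26 CPM in clone 1 (log2 4.00) and 0.385 and 0.51 in clone 2, had a median under 10 counts in WT and passed the filter only through the libraries where it is high, so its values are a description. Of the other 39 members 10 were higher in clone 1, OAS1 most (2.21), and 2 lower, BST2 most (-1.50). OAS2 was the 1 member of 40 for which the 8q-loss clones differed (3.29% of all genes), and 0 of the other 39 passed. The 13q genes shifted by -0.40 (log2) in 8q-loss clone 1, where EPSTI1, on 13q, was at 3.24 and 4.31 CPM, against 2.26 and 1.16 in clone 2 and 1.52 to 3.51 in WT.

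In AGS, 15 of the 40 members tested fell with loss of 1q and none rose, against the WT and TK+ libraries together, where 4.17% of all genes were called lower and 3.38% higher (7.55% in all), and the median log2 fold change was -1.02 against 0.0059 over all genes. The controls were not alike: for 39 of the 40 members tested both TK+ clones stood above the 1 WT library, where 32.9% of all genes did. With the 2 TK+ clones alone as controls 7 members were called, with the WT library alone 0 (3 at an unadjusted p under 0.05, median -0.42), and 0 were called when either TK+ clone was left out. The counts were 7 without the WT library, 8 without 1q-loss clone 1 or clone 6, and 6 without clone 7.

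IFI44L, a feedback regulator of interferon signalling, was at 11.8 CPM in WT, at 45.7 and 49.3 in the TK+ clones and at 1.93, 0.171, 3.02, 4.15 and 3.66 in 1q-loss clones 1, 4, 6, 7 and 11 (log2 -3.78, SE 0.67, adjusted p = 0.017). IFI16, on 1q, was at 9.72 CPM in WT, at 15.7 in both TK+ clones and at 1.27, 0, 1.83, 0.593 and 2.73 in the loss clones in the same order (-3.41, SE 0.71, adjusted p = 0.025). All 5 loss clones lay below all 3 controls for both genes, and the median shift of 1q genes was -0.56 to -0.52. IFI35, MX2 and OAS3 changed by log2 -2.67, -2.57 and -2.03. OAS3, another oligoadenylate synthetase, was at 271 CPM in WT, at 597 and 627 in TK+ and at 128, 25.6, 160, 150 and 143 in the loss clones. IFI6, the highest member of the parental line, was at 467, then 1400 and 1045, then 301, 52.6, 314, 269 and 252 CPM (-2.03, SE 0.51, adjusted p = 0.042).

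**Figure D3:**
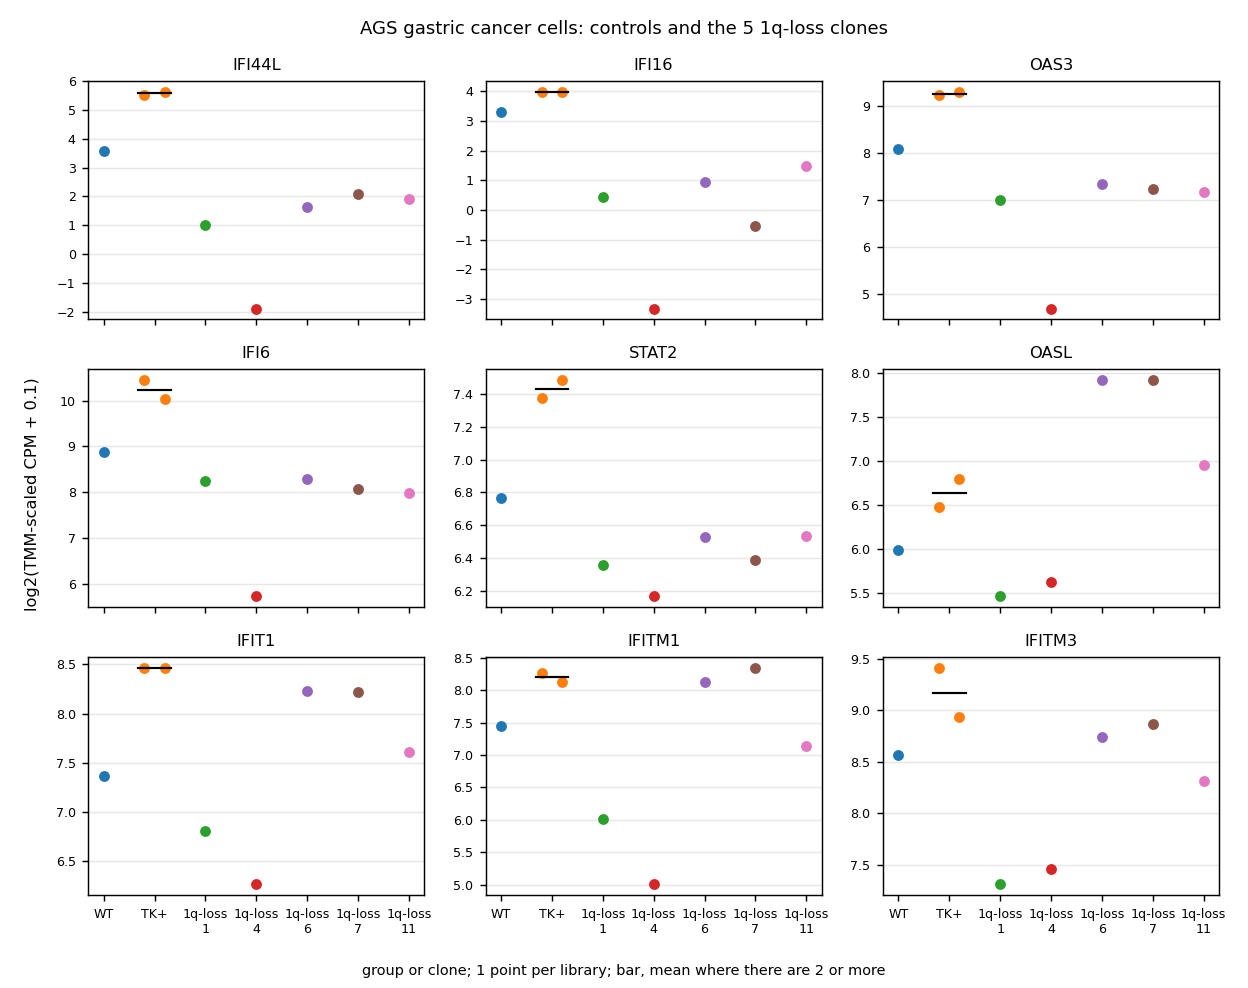
Level of 9 members in the 8 AGS libraries, as log2(TMM-scaled CPM + 0.1), 1 point per library and a bar at the mean of the 2 TK+ clones. IFI44L, IFI16, OAS3, IFI6 and STAT2 are below all controls in the 5 1q-loss clones; OASL, IFIT1, IFITM1 and IFITM3 are lowest in clones 1 and 4, with OASL at 241 and 242 CPM in clones 6 and 7 against 44.0 and 49.4 there.

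By role, 3 of 4 transcription factors fell in AGS: IRF7 (log2 -1.51, SE 0.30), IRF9 (-1.34, SE 0.32) and STAT2 (-0.83, SE 0.16). STAT2 was at 109 CPM in WT, 166 and 179 in TK+ and 71.7 to 92.7 in the loss clones, a small change with little spread. Of the sensors DDX58 fell with IFI16 (log2 -1.11), and of the ISG15 system PARP9 (-1.31), DTX3L (-1.29) and USP18 (-1.44). Only 3 of 21 effectors were called, MX2, OAS3 and IFIT5, and 4 of the 7 others, IFI44L, IFI35, IFI6 and EPSTI1. Several uncalled effectors had large means with large spread, such as BST2 (31.3 ± 17.8 CPM, n = 5, against 160 ± 87.1, n = 3, adjusted p = 0.062).

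The 5 AGS clones did not behave as 1 group. Clones 1 and 4 had 38 and 36 of 40 members below all 3 controls, with median differences of -1.26 and -2.02 on the log2(CPM + 1) scale, where 37% and 36.4% of all genes lay below. Clones 6, 7 and 11 had 22, 24 and 28 members below (34.7%, 34.7% and 30.1% of all genes) and 8, 8 and 2 above (32.4%, 32.1% and 28.9% of all genes). The IFIT genes, OASL, RSAD2 and DHX58 divided the clones: OASL was at 44.0 and 49.4 CPM in clones 1 and 4, at 241 and 242 in clones 6 and 7 and at 124 in clone 11, against 63.3 in WT and 88.9 and 111 in TK+. RSAD2 was at 15.2 and 17.9, then 157 and 146, then 61.0 CPM in the same order, with controls at 34.2, 80.6 and 73.9. With 1 library per clone, these differences between clones have no test. The 11p genes shifted by 0.41 and 0.46 and the 13q genes by -0.40 and -0.37 in clones 1 and 4 (log2). On 11p, IFITM1 was at 64.6 and 32 CPM in those clones against 279 and 325 in clones 6 and 7 and 142 in clone 11, IFITM3 at 158 and 176 against 427, 467 and 318, and IRF7 at 69.0 and 42.9 against 42.7, 38.3 and 95.2. TRIM22 was at 3.65 to 5.50 CPM in all 5 clones, IFITM2 was highest in clone 4 (12.3 CPM), and EPSTI1, on 13q, was at 62.9 and 35.2 CPM against 54.5 to 68.2 in the other three.

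Interferon genes themselves were detected in AGS. IFNL1, a type III interferon, had 27 to 295 counts per library, and was at 16.2 and 17.4 CPM in clones 7 and 6, 8.91 in clone 11, 3.02 in clone 4, 1.63 in clone 1, 3.10 in WT and 4.07 and 6.04 in TK+. IFNB1 had 6 to 34 counts. The libraries with the highest IFNL1, clones 6, 7 and 11, were also those with the highest OASL, a member picked with its values seen. In these clones 22, 24 and 28 of 40 members lay below all 3 controls (34.7%, 34.7% and 30.1% of all genes). IFI44L, OAS3 and IFI6 were among them, and 8, 8 and 2 members lay above (32.4%, 32.1% and 28.9% of all genes). Whether IFNL1 and the members are related was not tested. Of 42 pathway genes tested, 9 fell and none rose (4.17% and 3.38% of all genes): TLR3 (log2 -2.41, SE 0.50), PSMB9 (-2.28, SE 0.56), and IFNE (-1.67, SE 0.37) had the largest changes. ADAR fell by 1.25 on the log2 scale (SE 0.14; 278 to 395 CPM against 704 in WT and 773 and 852 in TK+) and JAK1 by 0.47, and IFNAR1 and IFNAR2 were not called. The gastric marker TFF1 was at 18.1 to 28.5 CPM in the 3 controls and at 0, 0, 3.96, 1.78 and 3.33 in loss clones 1, 4, 6, 7 and 11, and the immune markers summed to at most 0.129 CPM in any AGS library. The intestinal marker LGALS4 was at 7.72 to 14.1 CPM in the controls and 0.798 to 4.32 in the loss clones, while the 3 intestinal markers together overlapped (242 to 342 against 231 to 441). The 4 epithelial markers summed to 3788 to 5198 CPM in the controls and 5874 to 7874 in the loss clones, and the basal markers KRT14 and KRT5 were at 1.37 to 1.84 and 0.0592 to 0.194 against 2.46 to 13.5 and 0.333 to 30.3, with TP63 at most 0.121. The part of these marker differences in the members' changes was not tested.

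The change with 1q loss was opposite in A2058 and AGS for 9 members called in both, DDX58, IRF7, IFIT5, OAS3, MX2, DTX3L, IFI6, IFI44L and EPSTI1, which are 9 of the 30 higher in A2058 among the 39 members tested in both lines, and 9 of the 15 lower in AGS. That is 23.1% of those 39 members, where 1.17% of all 12898 genes tested in both were called in these directions (4.84% of those higher in A2058 and 27.4% of those lower in AGS). The 9 became 3 with the TK+ clones alone as AGS controls, and 0 with the AGS WT library alone or without either TK+ clone. They were 3 or 4 without loss clone 1, 6 or 7, and 14 with no filter on low counts. The difference of the 2 changes was tested in a model added after seeing the data. It passed for 33 of 43 members, 32 with the change higher in A2058 and 1 (HERC5, near 0 counts in AGS) lower, against 12.4% and 11.8% of all genes (24.2% in all). It passed for 33 with the TK+ clones alone as AGS controls and for 19 with the AGS WT library alone. The largest differences on the log2 scale were in XAF1 (9.49, SE 1.19), IFI27 (8.85, SE 1.26), OAS2 (7.44, SE 1.01), IFI44L (7.31, SE 0.94) and BST2 (6.66, SE 0.80), of which the first 3 had under 10 counts at the median in A2058 WT and are a description. Of the 36 members with a median of at least 10 counts in each of the 4 groups, 28 passed, all with the change higher in A2058. The same test between A2058 and MCF10A passed for 23 of 43 members, all with the change higher in A2058 (11.2% of all genes higher, 21.4% in all), and for 15 without MCF10A WT replicate 2. Among the members that passed, the largest differences were in IFI27 (6.95), BST2 (4.80), TRIM22 (4.69), EPSTI1 (4.38, SE 0.39) and IFI44L (4.12, SE 1.04). BST2, IFI27, TRIM22 and IFI44L had a median under 10 counts in at least 1 of the 4 groups and are a description. Of the other 33 members at or above that median in every group 19 passed, EPSTI1 with the largest difference and OASL next (4.02, SE 0.66).

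In A2780, where 13 of the 43 members reached 10 counts in no library, 6 members were called with loss of 1q. Of 27 members tested, 4 rose and 2 fell against WT and TK+ libraries together (5.95% and 5.88% of all genes, 11.8% in all), with a median log2 fold change of 0.22. IFI16 and IFI44L had a median under 10 counts in 1 of the groups and passed the filter only through the other, so their values are a description, and of the 22 members without such a group 3 rose and 1 fell. IFI44L was at 1.54 and 1.58 CPM in WT, at 6.74 and 5.96 in TK+, and at 0 to 0.28 in the 6 loss libraries, which held 16 counts in all (log2 -4.99). USP18 fell by 0.82 (11.5 to 20.2 CPM against 24.0 to 30.6), and no loss library overlapped the controls for either gene. IFIT3 (1.47, SE 0.41), IFIT5 (1.04, SE 0.29) and IFITM2 (1.18, SE 0.22) rose. IFI16 lies on the lost arm, whose genes shifted by -0.55 to -0.37, and was among the 4 called higher (3.52): it had 1 count in each clone 2 library, 25 and 21 counts in clone 5, 16 and 15 in clone 6, and 1, 0, 1 and 2 counts in the controls. Only 3 members were called without any 1 of the 4 control libraries, with the libraries of each clone summed or with TK+ controls alone, and 2 with WT controls alone.

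**Figure D4:**
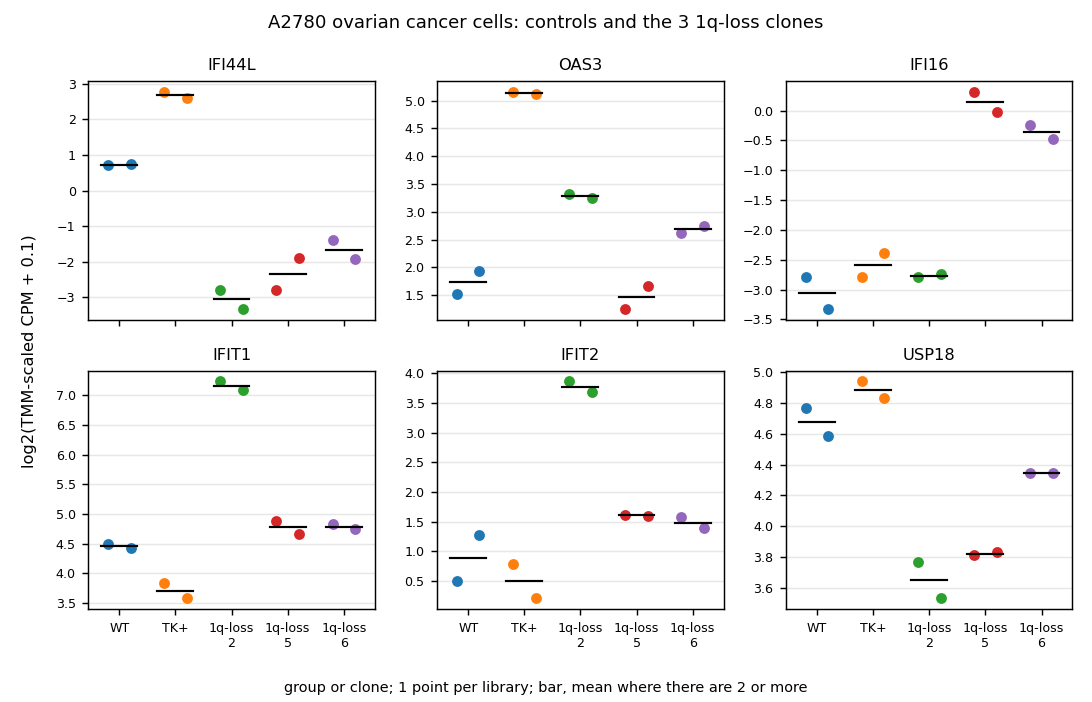
Level of 6 members in the 10 A2780 libraries, as log2(TMM-scaled CPM + 0.1), 1 point per library and a bar at the mean of each pair. IFI44L is lowest in the 3 loss clones and highest in TK+; IFI16 is detected in clones 5 and 6 (15 to 25 counts) and at 2 counts or fewer elsewhere; IFIT1 and IFIT2 are highest in clone 2.

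The A2780 clones differed in 8 of 27 members (12.2% of all genes). Clone 2 had 11 members higher and 2 lower (23.5% of all genes), led by IFIT2 at 14.5 and 12.8 CPM (log2 3.11) and IFIT1 at 151 and 136 CPM (3.04), whereas IFIT1 was at 25.2 to 29.5 CPM in clones 5 and 6 and 11.8 to 22.5 in the controls. IFI44L was lowest there, with 1 and 0 counts. In clone 5, 4 members were higher and 3 lower (14.3%), and in clone 6, 3 and 2 (10.3%), IFI16 being the largest increase in both (4.31 and 3.73) and IFI44L the largest decrease (-5.10 and -4.14), as a description. Without members under a median of 10 counts in the clone or the controls, 10 were higher and 1 lower in clone 2, 3 and 1 in clone 5, and 2 and 1 in clone 6, with USP18 the 1 lower in each. The controls also differed from each other: in TK+ against WT, 5 of 26 members rose and 2 fell (5.16% and 6.05% of all genes, 11.2% in all), a comparison that shares its libraries with the one above. GBP1, with 4 and 9 counts in TK+, passed the filter only through WT, so its fold (-2.54) is a description, and of the 23 members with a median of at least 10 counts in both groups 5 rose and 1 fell. OAS3 was at 35.6 and 34.7 CPM in TK+ and at 2.76 and 3.75 in WT (3.44, SE 0.15), and IFI44L (2.03), HERC6 (1.11), DTX3L (0.64) and PARP9 (0.57) rose with it, while IFIT1 (-0.75) fell. HERC6 and PARP9 were not called by DESeq2 or without WT replicate 2, nor PARP9 without WT replicate 1 or TK+ replicate 2, and 13 members were called without TK+ replicate 1. The summed level of the 4 epithelial markers was 171 and 180 CPM in WT, 5.6 and 8.39 in TK+, 84.2 and 84.7 in clone 2 and 7.23 to 14.9 in clones 5 and 6. The keratin genes KRT8 and KRT18 reached 140 and 42.9 CPM, whereas EPCAM and CDH1 were at most 1.47 and 0.321 CPM in any A2780 library. The part of this sum in these changes was not tested. Of 30 pathway genes tested with 1q loss, 4 rose and 3 fell (5.95% and 5.88% of all genes). HLA-B (1.2), IKBKE (-0.73), ADAR (-0.60) and HLA-C (0.51) had the largest changes, IFNAR1 rose by 0.28, and JAK1 and IFNAR2 were not called. In TK+ against WT, TAP1 fell (-1.01) and JAK1 (0.75) and IKBKE (0.44) rose.

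In MCF10A no member was called with 1q loss. Without hRas, 0 of 36 tested passed (0.3% of all genes higher, 1.74% lower, 2.04% in all), with 5 at an unadjusted p under 0.05, 0 by DESeq2 and a median log2 fold change of 0.06. With hRas, 0 of 39 passed (0.0252% of all genes higher, 0.189% lower, 0.214% in all), with 5 at an unadjusted p under 0.05, 0 by DESeq2 and a median of 0.11. The interaction of 1q loss with hRas passed for 0 of 39 members and 0% of all 16492 genes, with 0 members at an unadjusted p under 0.05 and 0 by DESeq2. IFI16 in the 8 1q-loss libraries ranged from 49.2 to 93.3 CPM with a median of 66.0, below 97.2 and 111 in WT (log2 -0.64, SE 0.21, adjusted p = 0.19). With hRas it ranged from 32.1 to 99 CPM (median 72.3), below 112 and 119 (-0.76, SE 0.36, adjusted p = 0.36). The groups did not overlap in either setting, and the median shift of 1q genes was -0.55 to -0.49 without and -0.46 to -0.30 with hRas. ADAR was the only pathway gene called, with a log2 change of -0.56 without (1 of 34 tested) and -0.61 with hRas (1 of 34), and so was called lower in each of the 5 1q-loss comparisons, 2 of which lie within MCF10A. JAK1, IFNAR1 and IFNAR2 were not called in either setting.

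Among MCF10A 1q-loss clones 1 to 4, 4, 4, 1 and 5 members were called (3.56%, 5.78%, 3.02% and 14.5% of all genes), and 7 of 36 differed between clones (10% of all genes). TRIM22, an antiviral ubiquitin ligase, was at 6.36 and 4.94 CPM in clone 1, at 32.9 and 19.8 in clone 2, at 16.8 and 15.3 in clone 3 and at 31.9 and 22.3 in clone 4, against 14.4 and 10.6 in WT. It was the largest increase in clones 2 (log2 1.07) and 4 (1.12), where IFI16 was the largest decrease (-0.97 and -1.03). In clone 1 IFITM2 rose most (0.88) and EPSTI1 fell most (-1.29), and in clone 3 GBP1 was the 1 member called (-1.12).

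**Figure D5:**
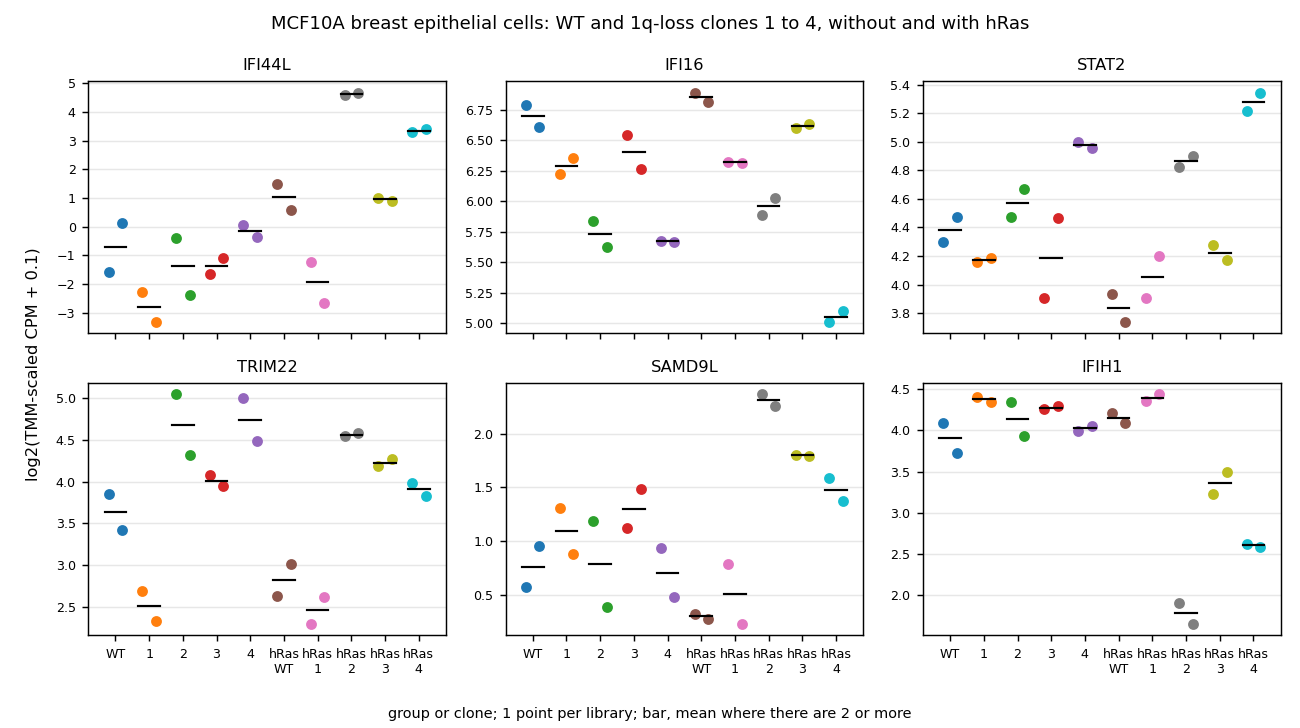
Level of 6 members in the 20 MCF10A libraries, as log2(TMM-scaled CPM + 0.1), 1 point per library and a bar at the mean of each pair, for WT and clones 1 to 4 without and with hRas. IFI16 is below its WT pair in every clone; IFI44L reaches 24.0 and 25.5 CPM in hRas clone 2 and 9.67 and 10.4 in hRas clone 4.

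In the hRas clones 22 of 39 members differed between clones, where 64.4% of all genes did, with 9, 17, 9 and 18 members called in clones 1 to 4 (18.8%, 51.4%, 15.8% and 51.5% of all genes). Of the 29 members with a median of at least 10 counts in each clone 18 differed, and without members under that median in the clone or hRas WT 6, 9, 4 and 8 were higher and 2, 6, 4 and 9 lower. IFI44L in clone 1, HERC5 in clone 2 and BST2 in clone 3 are under that median in the clone or in hRas WT, and their folds are a description. IFI44L was at 2.67 and 1.39 CPM in hRas WT, at 0.325 and 0.0596 in clone 1, 24.0 and 25.5 in clone 2, 1.91 and 1.77 in clone 3 and 9.67 and 10.4 in clone 4. It was the largest decrease in clone 1 (log2 -3.41) and the largest increase in clones 2 (3.60) and 4 (2.33). IRF7 rose most in clone 1 (0.83), HERC5 fell most in clone 2 (-2.59), and in clone 3 BST2 rose most, from 2 and 0 counts in hRas WT to 12 and 20 counts, and IFIH1 fell most (-0.79). IFIH1 was at 18.4 and 16.9 CPM in hRas WT, 20.3 and 21.5 in clone 1, 3.67 and 3.05 in clone 2, 9.24 and 11.2 in clone 3 and 6.07 and 5.91 in clone 4. IFI16 was lower in all 4 clones (-0.54, -0.90, -0.24 and -1.78). The basal markers KRT5, KRT14 and TP63 together stood at 634 and 603 CPM in clone 2, at 2437 and 2563 in clone 4 and at 3602 to 4294 in clones 1 and 3 and hRas WT. The 4 epithelial markers summed to 417 to 1510 CPM over the hRas 1q-loss libraries and to 821 and 835 in hRas WT. The part of both sets in these differences was not tested.

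With the hRASV12 oncogene 2 members were called in WT cells and 3 in 1q-loss cells. In WT cells IFITM2 rose from 65.4 and 54.0 to 82.5 and 85.9 CPM (log2 0.50, SE 0.10, adjusted p = 0.024) and GBP1 fell from 19.4 and 27.4 to 10.4 and 12.6 (-1.02, SE 0.18, adjusted p = 0.011), the 2 called of 36 tested (0.703% of all genes higher, 0.915% lower, 1.62% in all). No library overlapped for either gene, and 0 members were called without either WT library or without hRas WT replicate 1, and 8 with a replicate block or with no filter on low counts. In 1q-loss cells IFI44L was called higher (4.58) and DDX58 (-0.45) and the ADP-ribosyltransferase gene PARP9 (-0.36) fell, 3 of 35 tested (0.795% higher, 0.405% lower, 1.2% in all). IFI44L overlapped between these groups, at 0 to 0.932 CPM (median 0.294) without and 0.0596 to 25.5 (median 5.79) with hRas, and it passed the filter only through the hRas libraries, so its fold is a description. None of the 3 was called with the libraries of each clone summed or without hRas clone pairs 2, 3 or 4, and leaving out single libraries gave 0 to 4 calls. The labels give the clones the same numbers and techniques with and without hRas but do not say whether same-numbered clones are related, and the 19q genes shifted by 0.45 and 0.59 (log2) in clone 4 without and with hRas, each against its WT, and by -0.02 to 0.18 in the other 6 clones. With the clone number as a block, a fit added after seeing the data, 11 of 35 members were called, 2 higher and 9 lower (15.1% of all genes). IFI44L (4.19), DDX58 (-0.45) and PARP9 (-0.36) were among them, and of the other 8 IFITM2 (0.52) was higher and IFIH1 (-1.14), EPSTI1 (-0.95) and HERC6 (-0.71) had the largest decreases. The interaction with that block passed for 0 of 39 members (0.00606% of all genes), with 5 at an unadjusted p under 0.05. Of the pathway genes 0 of 33 passed in WT (5 at an unadjusted p under 0.05) and SOCS3, an inhibitor of JAK signalling, rose by 0.86 in 1q-loss cells, 1 of 33 tested.

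In HCT116, loss of 8q gave no called member. Of 32 tested, 0 passed by edgeR and 2 by DESeq2 (0.14% of all genes by edgeR), 7 had an unadjusted p under 0.05, and the median log2 fold change was -0.55. IFIT1 was at 6 and 7.29 CPM in clone 1 and 7.53 and 11.4 in clone 2, against 25.4 and 30.9 in WT (-1.80, SE 0.34, adjusted p = 0.084). OASL was at 3.33, 4.10, 5.92 and 7.55 CPM against 21.6 and 14.0 (-1.76, SE 0.40, adjusted p = 0.2), and neither gene overlapped between groups. Within clones, IFIT1 and OASL were called lower in clone 1 (-2.08 and -2.26; 0.639% of all genes), and in clone 2 IFIT1 was lower (-1.57) and BST2 higher (2.01; 1.28%). BST2 was at 6.74 and 9.68 CPM in clone 2, at 1.86 and 1.85 in clone 1 and at 2.00 and 2.07 in WT. It differed between the clones, as did IFITM1 and IFI35 (3 of 32 members, 4.66% of all genes). No pathway gene was called (0 of 34, 7 at an unadjusted p under 0.05), and IFNB1 and IFNL1 had up to 15 and 25 counts in a library.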

How the data were processed

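Gene counts were deposited by the authors for each of the 62 libraries as raw counts per gene, not normalized; CPM below are counts scaled to library size. Per the labels' protocols, RNA was isolated with a Qiagen kit, mRNA was captured on poly-T beads and fragmented, and cDNA was primed with random hexamers. The submitters' processing notes name HISAT2 2.0.5, featureCounts 1.5.0-p3 and hg38. The A2780 tables hold GRCh37 coordinates by their gene models and the others GRCh38, so lines were joined by gene name only. The members and the lists of pathway and marker genes were chosen with earlier results of these data known.

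Each comparison was fitted on all genes of its own libraries with edgeR 4.0.16 in R 4.3.3 (default low-count filter, TMM scaling, quasi-likelihood F-test), with p-values adjusted by the Benjamini-Hochberg method over all genes tested and a call at an adjusted p under 0.05. Counts at an unadjusted p under 0.05 were made for the listed genes only, so no share over all genes stands beside them. SEs were derived from each fold change and its F statistic. Printed CPM are TMM-scaled within a line, and levels between genes are per kilobase. The library is the replicate, and each clone was also fitted alone against the same controls. Alternatives were DESeq2 1.42.0, no low-count filter, a replicate block, sums per clone, other controls, and leaving out each library or clone. The comparisons between lines and of 1q-loss with 7p-loss and 8q-loss, the split of the AGS controls, and the blocks on clone number and between clones, were added after the data were seen, as was the median of 10 counts under which a group is called low. Fits were tested on simulated data. In each comparison the text names all called members where at most 10 were called, otherwise the 5 largest in each direction, IFI16 in each 1q-loss comparison, XAF1 in A2058 7p-loss clone 1, IRF7, TRIM22, IFITM1 to IFITM3 and EPSTI1 in AGS clones 1 and 4 (members on arms that shifted there), and the largest change in each direction per clone. Other members are named to describe their role and were chosen with their values seen. One pathway gene is not reported here.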

Additional observations from a re-analysis of the deposited data

Results flagged for a closer look

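In a set of 39 tests for a lone extreme value in groups of 4 to 10 libraries, 3 gave one, where chance gives about 1 in 20. IFI27 in A2058 WT replicate 3, at 0.0462 CPM, was the lowest of 4 libraries, with the nearest at 0.152. In AGS 1q-loss clone 4, IFI35, at 1.37 CPM, and OAS3, at 25.6 CPM, were the lowest of 5 clones, with the nearest at 5.38 and 128.

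The change with 1q loss differed between A2058 and AGS for 33 of 43 members and between A2058 and MCF10A for 23 of 43, by an interaction term in edgeR, where 24.2% and 21.4% of all genes did. Of the 36 and 33 members with a median of at least 10 counts in each of the 4 groups, 28 and 19 passed. The first count was 19 with the AGS WT library as the only AGS control. The second count was 15 without MCF10A WT replicate 2.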

How the results depend on the processing

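The number of members called in A2058 1q-loss, 34, stayed between 33 and 36 under every alternative run, and 31 of the 34 were called under all of them. Members called in A2058 7p-loss went from 0 to 4 without clone 1. In A2058 8q-loss the 3 calls became 7 with DESeq2, 5 with no filter, 1 with a replicate block, 1 with WT replicates 1 and 2 only, 0 with WT replicates 3 and 4 only and 13 without clone 2, and 1 to 4 when single libraries were left out (1 without WT replicate 2). HCT116 went from 0 to 2 with DESeq2, with no filter and without clone 2. AGS went from 15 to 7 with TK+ controls only and 0 with the WT control only, and to 0 to 18 without single libraries (0 without either TK+ clone). A2780 1q-loss went from 6 to 3 with a replicate block, 3 with clone sums, 2 with WT controls only and 3 with TK+ controls only, and to 3 to 7 without single libraries. MCF10A 1q-loss went from 0 to 1 with no filter. For hRas in WT cells the 2 calls became 8 with no filter, 8 with a replicate block and 0 to 2 without single libraries, and for hRas in 1q-loss cells the 3 became 7 with DESeq2, 1 with no filter, 1 with a replicate block, 0 with clone sums, 11 with the clone number as a block, 8 without clone 1, 0 without clone 2, 3 or 4, and 0 to 4 without single libraries. A2780 TK+ gave 7, and 5 to 13 without single libraries (13 without TK+ replicate 1). The difference between A2058 and AGS went from 33 to 19 with the AGS WT control only. The difference between A2058 and MCF10A gave 23, and 15 to 23 without single libraries. Differences between the A2058 1q-loss clones went from 3 members to 8 with a replicate block. The cause of these changes was not tested. No direction reversed: of the values of single called members under an alternative, 1002 stayed past the threshold and 210 did not.

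Same-numbered libraries were not treated as pairs, since no comparison of a loss group with its controls had every pair's deviations correlated over 0.1. The correlations used libraries numbered 1 and 2, so A2058 WT replicates 3 and 4 were not checked. In the A2058 replicate block these WT libraries have no same-numbered partner and add nothing to the estimated change. Between A2058 clones same-numbered libraries did deviate together (0.33, 0.34 and 0.42 among 7p-loss clones, 0.49 between 8q-loss clones, 0.23 between 1q-loss clones). Against same-numbered WT libraries the correlation was -0.08 to 0.02 for 7p-loss and 8q-loss clones and 0.06 and 0.10 for 1q-loss clones. In MCF10A without hRas it was 0.09 to 0.16 against WT, 3 of 4 clones over 0.1, and -0.02 to 0.14 between clones, with 0 members called under the block as without it. In A2780 the range was -0.18 to 0.32. No block was fitted in AGS, whose labels give no replicate numbers. Members near 0 counts limit the A2780 and HCT116 comparisons, where 13 and 8 members reached 10 counts in no library.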
